A study of Mus musculus with 6 samples.

Results

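The nuclear genes of respiratory complex I were measured in the substantia nigra (SN) of MitoParks and littermate controls. Members were the genes of the expression table whose symbol begins with Nduf and whose mean level over the 6 mice was above 1 CPM, the count of a gene relative to the total count of its library. The table holds 45 such symbols of 24054 genes, and all 45 passed the level rule, the lowest being Ndufa4l2 with a mean of 1.93 CPM. By symbol, 38 are structural subunits (Ndufa, Ndufb, Ndufc, Ndufs and Ndufv) and 7 are assembly factors (Ndufaf). Of the 38, Ndufa4 and Ndufa4l2 carry the Nduf name but are not complex I subunits in the current view, which leaves 36. Ndufb1 was not analysed here. Ndufaf8 stands in the table under the older symbol 1810043H04Rik, outside the rule, with a mean of 4.68 CPM.

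RNA-seq of polyadenylated RNA was done on 3 MitoParks and 3 controls, and the labels give an age of 16 to 17 weeks, with no treatment. MitoParks are Dat+/Cre: TFAM LoxP/LoxP mice, in which Cre expressed from the dopamine transporter locus deletes Tfam, the gene of mitochondrial transcription factor A. The controls were C57BL/6 mice that, by the study's description of its animals, are TFAM+/LoxP: Dat+/+ from MitoPark or parental strain litters, so both groups carry a floxed Tfam allele and the controls carry no Cre. The deletion is limited to cells that express the transporter, while the RNA came from whole dissected tissue, which the labels call brain and the study calls SN. The sex of each mouse is not given in the labels.

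Complex I, the NADH:ubiquinone oxidoreductase, takes electrons from NADH in a peripheral arm that reaches into the mitochondrial matrix, passes them along iron-sulphur clusters to ubiquinone, and pumps protons through a membrane arm in the inner membrane. Its core subunits are conserved from bacteria. The core subunits of the membrane arm are encoded by mitochondrial DNA, whose transcription and maintenance need Tfam, whereas the remaining core subunits and all accessory subunits are nuclear. Assembly factors build the enzyme from modules and leave the finished complex, and loss of complex I activity in the SN has long been studied in Parkinson's disease. The table holds no mitochondrially encoded genes, so only the nuclear side is described.

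Tfam itself had 40.3, 44.4 and 45.5 CPM in controls 1, 2 and 3 and 32.7, 33.1 and 33.2 CPM in MitoParks 1, 2 and 3. Every MitoPark was below every control. The log2 fold change was -0.40 (SE 0.11). By edgeR's quasi-likelihood test the unadjusted p was 0.00565 (adjusted p = 0.999), and the exact two-sided permutation test gave 0.1, the smallest p that 3 mice against 3 can reach. The gene-level count also takes reads from parts of Tfam outside the deletion and from cells without Cre. All 10 markers of DAergic neurons fixed for the check were detected in the controls, and for all 10 the mean was lower in MitoParks (median log2 fold change -0.81). Their summed level was 462 and 544 CPM in controls 1 and 2 but 1528 CPM in control 3, whereas MitoParks 1, 2 and 3 had 306, 564 and 557 CPM, so control 3 and MitoPark 1 stood apart and the ranges of the sum overlapped. Of the 10, Slc6a3, the dopamine transporter gene from whose locus Cre is expressed in MitoParks, was the 1 with an unadjusted p below 0.05 and the 1 past both of the study's cutoffs. Of all genes tested, 1.11% had such a p and 0.577% passed both cutoffs. Slc6a3 had 72.6, 65.3 and 383 CPM in controls and 13.3, 51.1 and 40.9 CPM in MitoParks. The groups did not overlap, which held for 4.71% of all genes. Its log2 fold change was -2.30 (SE 0.70, unadjusted p = 0.00895 and adjusted p = 0.999 by edgeR). The groups differ in genotype at this gene itself (Dat+/Cre against Dat+/+), and the part of that in its level was not tested. Pitx3, a transcription factor of these neurons, had no counts in MitoPark 1. The total expected counts were between 8140777 and 10528602 per mouse, at which 3 counts correspond to 0.285 to 0.369 CPM.

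Sequences before and just after the transcription start are shown first. Their relation to the levels of these genes in the mice was not tested. The RefSeq promoter table (GRCm38.p6), which spans 250 bases before to 50 bases after each start, held 33 subunit and 6 assembly factor symbols. They were searched on both strands for letters known as binding motifs of factors of nuclear mitochondrial genes. These were CGCATGCG for NRF1, which reads alike on both strands, CCGGAA or its reverse complement TTCCGG for ETS factors, and AAGATGGC or its reverse complement GCCATCTT for YY1. Members were counted by gene, with a match in any promoter of the gene, whereas the promoters of the whole table were counted singly. The YY1 letters were in 7 of 33 subunit genes (21.2%), in 0 of 6 assembly factor genes and in 2.75% of all 32851 promoters of the table. The ETS letters were in 10 of 33 subunits (30.3%), in 1 of 6 assembly factors and in 14.9% of all. The NRF1 letters were in 2 of 33 subunits, in 2 of 6 assembly factors and in 1.87% of all. The promoters were not matched for base composition, and a match of letters does not show that a factor binds.

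In all 7 subunit genes the YY1 letters were on the coding strand after the start, with their first base between position 23 and position 39 of the transcript. They are shown as 22 bases each, with the motif in capitals, for Ndufa3 at chr7:3617385-3617406 (plus strand), Ndufa9 at chr6:126849104-126849125 (minus strand), Ndufb8 at chr19:44555393-44555414 (minus strand), Ndufc1 at chr3:51408922-51408943 (minus strand), Ndufs4 at chr13:114388048-114388069 (minus strand), Ndufs6 at chr13:73328438-73328459 (minus strand) and Ndufs7 at chr10:80249463-80249484 (plus strand).
Ndufa3: cgccaagaacAAGATGGCcggg
Ndufa9: attgtgggagAAGATGGCggcc
Ndufb8: ggagaaggtgAAGATGGCtgcc
Ndufc1: cctgcggaacAAGATGGCgccg
Ndufs4: tgcctacaggAAGATGGCggcg
Ndufs6: ggtcaccggcAAGATGGCggcg
Ndufs7: ggccgaggccAAGATGGCggcg

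The ETS or NRF1 letters are shown in the 150 bases before the start of 6 genes, again in capitals. The genes are Ndufv1 at chr19:4012756-4012905 (minus strand), Ndufs3 at chr2:90904722-90904871 (minus strand), Ndufa8 at chr2:36049339-36049488 (minus strand), Ndufa11 at chr17:56717612-56717761 (plus strand), Ndufaf1 at chr2:119662835-119662984 (minus strand) and Ndufaf4 at chr4:24897933-24898082 (plus strand). Ndufv1 and Ndufs3 are core subunits with ETS letters, Ndufa8 and Ndufa11 are membrane arm subunits with NRF1 letters, and Ndufaf1 and Ndufaf4 are the assembly factors with a match before the start.
Ndufv1: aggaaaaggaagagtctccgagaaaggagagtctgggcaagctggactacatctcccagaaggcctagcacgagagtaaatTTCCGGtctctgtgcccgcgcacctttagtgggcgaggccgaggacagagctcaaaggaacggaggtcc
Ndufs3: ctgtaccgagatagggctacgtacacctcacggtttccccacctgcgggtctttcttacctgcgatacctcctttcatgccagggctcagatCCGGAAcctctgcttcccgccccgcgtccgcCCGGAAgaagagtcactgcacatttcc
Ndufa8: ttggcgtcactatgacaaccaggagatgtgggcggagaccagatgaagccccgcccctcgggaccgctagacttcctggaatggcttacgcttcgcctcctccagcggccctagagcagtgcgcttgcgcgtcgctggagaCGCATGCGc
Ndufa11: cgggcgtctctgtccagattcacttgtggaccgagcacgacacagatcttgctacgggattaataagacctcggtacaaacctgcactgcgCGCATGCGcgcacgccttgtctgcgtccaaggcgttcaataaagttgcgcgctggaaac
Ndufaf1: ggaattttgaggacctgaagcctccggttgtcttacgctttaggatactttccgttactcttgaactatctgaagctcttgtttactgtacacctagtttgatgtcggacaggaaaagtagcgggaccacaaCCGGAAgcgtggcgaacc
Ndufaf4: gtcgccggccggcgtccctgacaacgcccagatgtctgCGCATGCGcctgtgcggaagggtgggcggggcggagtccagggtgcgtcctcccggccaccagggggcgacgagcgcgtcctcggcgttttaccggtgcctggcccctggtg

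Levels between genes were compared as CPM per kb of transcript, with the shortest best-supported principal transcript of GENCODE M21 as the length. The median level was 78.0 CPM per kb over the 38 subunits and 15.5 CPM per kb over the 7 assembly factors, a ratio of 5.04. Of the 36 complex I subunits, 35 were above the highest assembly factor, and the exception was Ndufc1 of the membrane arm. With the longest transcript of each gene as the length instead, the ratio was 5.27 and 33 of the 36 were above. The subunits of 1 enzyme were spread over a ratio of 7.65 from the highest to the lowest. The 6 nuclear core subunits reported singly ran from 59.4 to 86.4 CPM per kb, while the membrane arm accessory subunits ran from 25.2 to 193 CPM per kb. Among assembly factors the range was from 5.84 to 29.3 CPM per kb, a ratio of 5.01.

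Ndufa4, which is now assigned to complex IV, had the highest level of all 45 genes, with 214 ± 12.0 CPM per kb in controls and 223 ± 18.0 CPM per kb in MitoParks (SD, n = 3). The next was Ndufb8, a membrane arm subunit whose protein is widely used as a marker of assembled complex I, with 196 ± 25.8 CPM per kb in controls and 189 ± 1.85 CPM per kb in MitoParks (SD, n = 3). At the low end of the subunits were Ndufc1, with 25.7 ± 2.48 and 24.6 ± 3.75 CPM per kb in controls and MitoParks (SD, n = 3), and Ndufa4l2, with 1.70 ± 0.992 and 2.43 ± 0.914 CPM per kb (SD, n = 3). In each of these genes the SDs of the groups overlapped. Among assembly factors Ndufaf2 and Ndufaf5 were highest, with means over the 6 mice of 29.3 and 27.1 CPM per kb. Ndufaf6 and Ndufaf3 were lowest, with means of 5.84 and 12.7 CPM per kb.

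**Figure D1:**
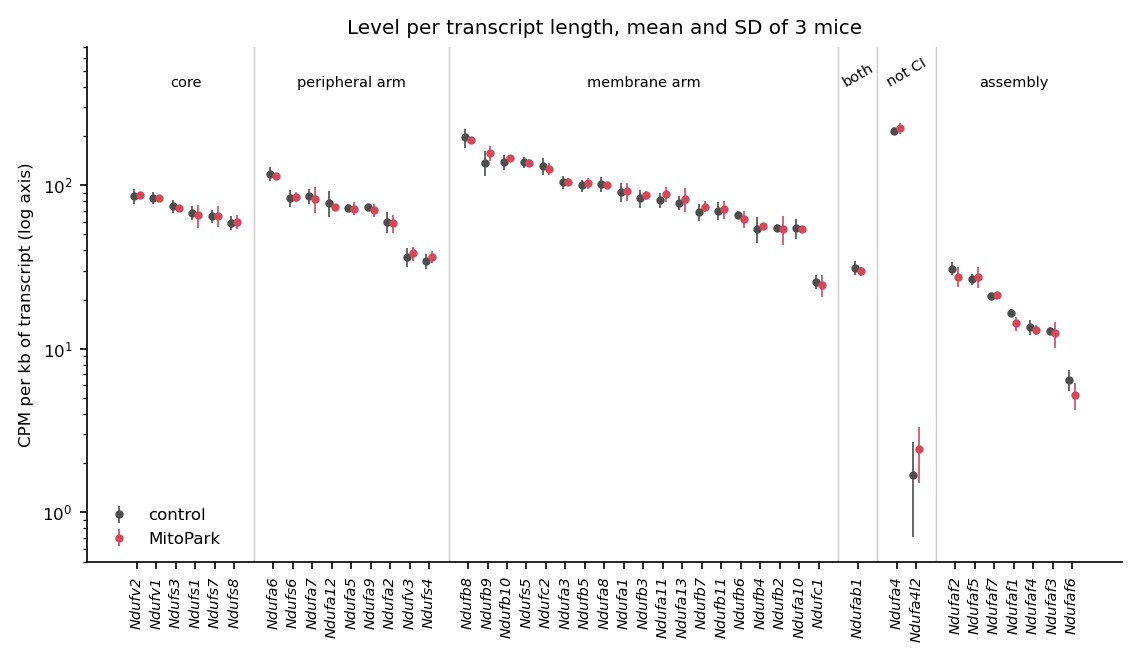
Level of 44 of the Nduf genes in CPM per kb of transcript on a log axis, ordered within classes, with the mean (point) and SD (bar) of 3 controls and 3 MitoParks. Subunits lie mostly between 25.2 and 193 CPM per kb and assembly factors between 5.84 and 29.3 CPM per kb, and the points of the groups lie close together in every class but Ndufa4l2.

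The main comparison asked whether nuclear complex I transcripts differ between MitoParks and controls. An unadjusted p below 0.05 was reached by 0 of the 45 members in edgeR's quasi-likelihood test, against 161 of 14568 genes tested (1.11%). Likewise 0 of 45 passed the study's cutoffs, an unadjusted p below 0.05 with a fold change above 1.5, against 84 of all genes (0.577%). At those shares fewer than 1 call among 45 genes would come from the background alone, so a count of 0 does not set these genes apart. The share of all genes with an unadjusted p below 0.05 moved with single mice, to 374 genes (2.56%) without control 3, 657 (4.49%) without MitoPark 2 and 97 (0.668%) without MitoPark 3, and it was 323 genes (2.22%) when same-numbered mice were blocked. In no member were the 3 MitoParks all above or all below the 3 controls, against 686 of all genes (4.71%). The adjusted p was 0.999 for every member, and with all 6 mice and no block no gene of the table had an adjusted p below 0.05 with edgeR or DESeq2. With DESeq2 0 members had an unadjusted p below 0.05, against 96 of 14568 genes (0.659%). In tissue of mixed cells, fewer cells of a type and less RNA per cell cannot be told apart.

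The size of any difference in the whole tissue was bounded more closely than by these counts. Differences within the DAergic neurons alone were not measured, and the intervals do not bound them. The 95% interval of the fold change lay within a 1.5-fold change in either direction for 43 of the 45 members (95.6%), against 66.5% of all genes tested, which include many with lower counts and wider intervals. All 36 complex I subunits were among the 43, and the exceptions were Ndufa4l2 and Ndufaf6, which have the lowest levels. The median log2 fold change was 0.0051 over the 38 subunits, of which 20 had a higher and 18 a lower mean in MitoParks. Over the 7 assembly factors, 2 of them higher and 5 lower, it was -0.059, and over all genes it was -0.0047, with 7077 higher and 7491 lower. An interval within these bounds does not show that the levels are equal, and smaller differences inside the intervals remain possible. The size of difference that 3 mice a group could detect was not computed.

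**Figure D2:**
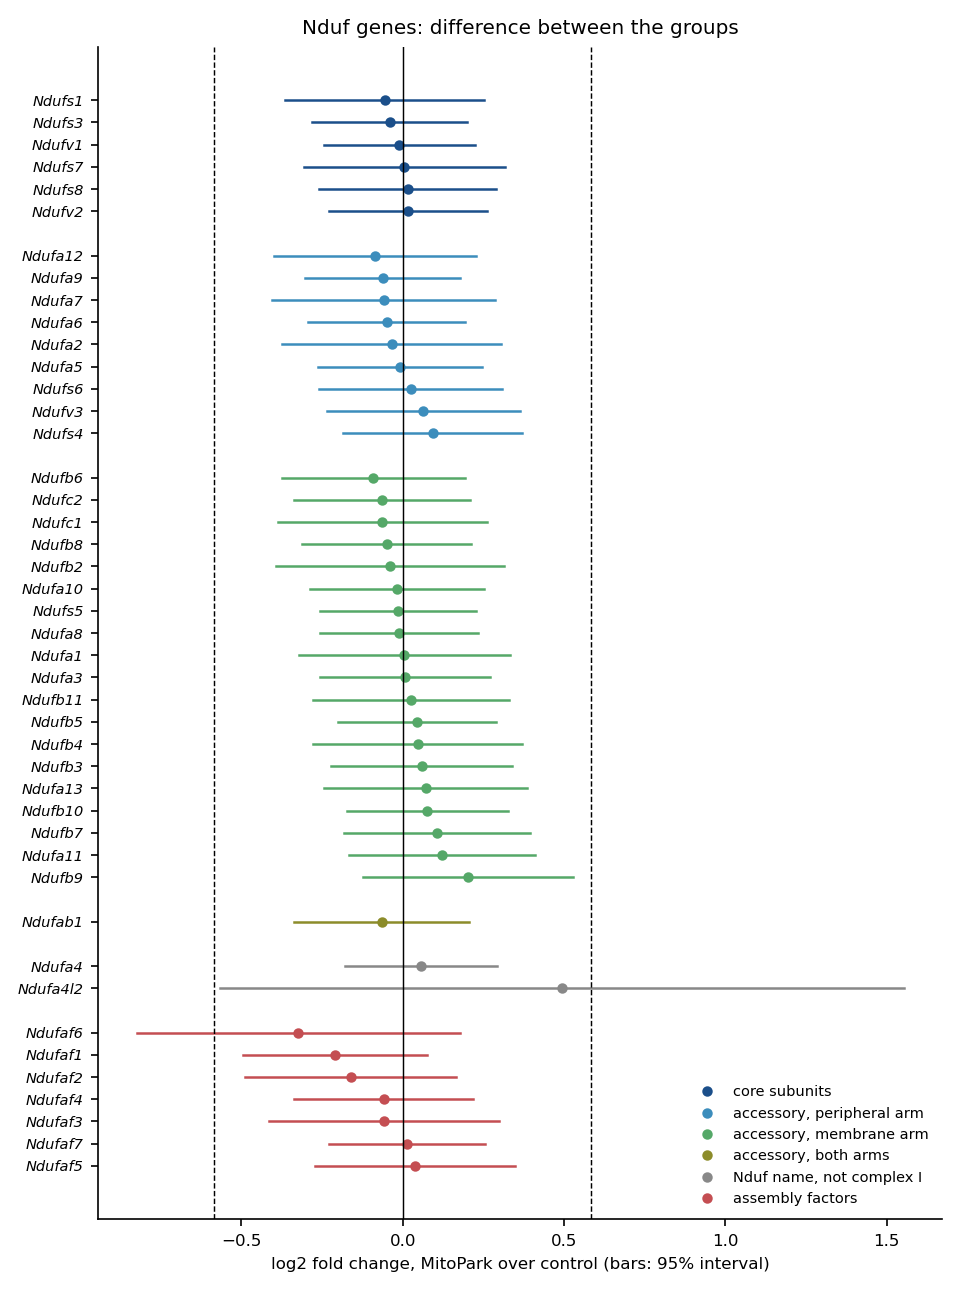
Log2 fold change of MitoParks over controls (points) with its 95% interval (bars) for 44 of the 45 genes by class, with dashed lines at a 1.5-fold change either way. All 44 intervals cross 0, and those of Ndufa4l2 and Ndufaf6 pass a dashed line.

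The 7 nuclear core subunits carry the NADH site, the iron-sulphur clusters and most of the ubiquinone site. Their log2 fold changes lay between -0.057 and 0.016 with a median of 0.0053, and 4 were higher and 3 lower in MitoParks. Ndufv1, which binds the flavin that oxidises NADH, had 129, 152 and 137 CPM in controls 1, 2 and 3 and 143, 131 and 140 CPM in MitoParks 1, 2 and 3. The MitoPark values lay inside the control range, and the log2 fold change was -0.011 (SE 0.10, unadjusted p = 0.921 by edgeR). Ndufv2, the iron-sulphur partner of Ndufv1, had 128, 156 and 153 CPM in controls and 149, 149 and 144 CPM in MitoParks, again inside the control range, with a log2 fold change of 0.016 (SE 0.11, unadjusted p = 0.888 by edgeR).

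Ndufs1, the largest subunit and carrier of several iron-sulphur clusters, had 157, 180 and 191 CPM in controls and 162, 200 and 146 CPM in MitoParks. MitoPark 2 was the highest and MitoPark 3 the lowest of all mice, and the log2 fold change was -0.057 (SE 0.14, unadjusted p = 0.690 by edgeR). Ndufs3, Ndufs7 and Ndufs8 had log2 fold changes of -0.041, 0.0053 and 0.016.

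Of the 9 accessory subunits of the peripheral arm, 3 had a higher and 6 a lower mean in MitoParks, with a median log2 fold change of -0.035. The smallest unadjusted p in this class was 0.470, for Ndufs4, whose loss causes Leigh-like disease in mice. Ndufs4 had 51.0, 62.1 and 61.3 CPM in controls and 65.3, 65.0 and 55.8 CPM in MitoParks, with a log2 fold change of 0.093 (SE 0.12). The lowest log2 fold change was that of Ndufa12, -0.085 (SE 0.14), which had 69.6, 88.5 and 101 CPM in controls and 77.5, 85.3 and 81.4 CPM in MitoParks. In both genes the groups overlapped.

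Among the 19 accessory subunits of the membrane arm, 11 were higher and 8 lower in MitoParks (median log2 fold change 0.0062). They held the 3 complex I subunits with the smallest p among those with a higher mean and the subunit with the smallest p among those with a lower mean. Ndufb9, at the far end of the membrane arm, had 77.7, 101 and 110 CPM in controls and 106, 102 and 125 CPM in MitoParks. MitoPark 3 was the highest and control 1 the lowest, the other mice overlapped, and the log2 fold change was 0.20 (SE 0.15, unadjusted p = 0.197 by edgeR), with an interval from 0.917-fold to 1.44-fold. Ndufa11, a transmembrane subunit, had 40.4, 49.0 and 43.1 CPM in controls and 51.9, 42.6 and 49.9 CPM in MitoParks (log2 fold change 0.12, SE 0.13, unadjusted p = 0.367 by edgeR). Ndufb7, which lies on the intermembrane side, had 37.5, 47.4 and 43.6 CPM in controls and 48.9, 42.3 and 47.4 CPM in MitoParks (log2 fold change 0.11, SE 0.13, unadjusted p = 0.425 by edgeR). In both, the highest mouse was MitoPark 1 and the lowest was control 1.

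In the other direction, Ndufb6 had 42.3, 46.4 and 41.8 CPM in controls and 46.6, 37.7 and 38.4 CPM in MitoParks. MitoParks 2 and 3 were below all controls, but MitoPark 1 was the highest of the 6 mice, and the log2 fold change was -0.091 (SE 0.13, unadjusted p = 0.486 by edgeR). Ndufb8 had 113, 143 and 143 CPM in controls and 128, 130 and 129 CPM in MitoParks, with a log2 fold change of -0.049 (SE 0.12, unadjusted p = 0.681 by edgeR). Ndufc1 had 31.5, 35.4 and 29.3 CPM in controls and 35.2, 25.9 and 31.2 CPM in MitoParks, with a log2 fold change of -0.063 (SE 0.14, unadjusted p = 0.672 by edgeR). In Ndufb8 the MitoParks lay inside the control range, and in Ndufc1 the groups overlapped. Ndufab1, the mitochondrial acyl carrier protein that sits in both arms, had 40.1, 48.5 and 44.2 CPM in controls and 41.9, 45.2 and 39.8 CPM in MitoParks, also overlapping (log2 fold change -0.066, SE 0.12).

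The Nduf names outside complex I were at the extremes of level. Ndufa4 had 123, 138 and 131 CPM in controls and 146, 124 and 137 CPM in MitoParks, which overlapped, with a log2 fold change of 0.058 (SE 0.10, unadjusted p = 0.595 by edgeR). Ndufa4l2, a paralog of Ndufa4 known to be induced by low oxygen, had 0.891, 1.23 and 2.64 CPM in controls and 2.56, 1.31 and 2.95 CPM in MitoParks, from 8 to 27 counts a mouse. Control 3 stood among the high MitoParks and MitoPark 2 among the low controls. Its log2 fold change of 0.49 (SE 0.47, unadjusted p = 0.322 by edgeR) was the largest of all members, and its interval ran from 0.675-fold to 2.93-fold. Without control 3, the mouse with the high DAergic markers, the log2 fold change was 1.07 with an unadjusted p of 0.0495, and Ndufa4l2 then was the 1 member of 45 past both of the study's cutoffs, against 219 of 14609 genes tested in that fit (1.5%). A single call among 45 genes is near that background share.

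The 3 members with the smallest p among those with a lower mean were assembly factors. Ndufaf1, a chaperone that builds part of the membrane arm, had 22.4, 24.9 and 24.9 CPM in controls and 18.6, 22.7 and 20.98 CPM in MitoParks. Only control 1 and MitoPark 2 overlapped, by a small margin, and the log2 fold change was -0.21 (SE 0.13, unadjusted p = 0.131 by edgeR), with an interval from 0.709-fold to 1.05-fold. Ndufaf6, which acts early in the building of the membrane arm, had 6.68, 6.17 and 8.21 CPM in controls and 6.83, 5.06 and 4.99 CPM in MitoParks. MitoParks 2 and 3 were below all controls and MitoPark 1 was not, and the log2 fold change was -0.32 (SE 0.22, unadjusted p = 0.179 by edgeR), with an interval from 0.565-fold to 1.13-fold. Ndufaf2, a paralog of Ndufa12 that holds its place during assembly, had 19.2, 20.8 and 23.0 CPM in controls and 16.0, 19.1 and 21.2 CPM in MitoParks, with overlap and a log2 fold change of -0.16 (SE 0.15, unadjusted p = 0.297 by edgeR).

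The other 4 assembly factors were closer to 0. Ndufaf3 and Ndufaf4, which form a pair that assembles the ubiquinone module, had log2 fold changes of -0.058 (SE 0.16) and -0.059 (SE 0.12). Ndufaf3 had 20.3, 19.3 and 18.0 CPM in controls and 20.6, 14.6 and 20.2 CPM in MitoParks, so that MitoPark 2 alone lay below the controls (unadjusted p = 0.720 by edgeR). Ndufaf5, an enzyme that modifies an arginine of Ndufs7, had 28.6, 33.4 and 31.4 CPM in controls and 29.1, 37.4 and 29.4 CPM in MitoParks. MitoPark 2 was the highest mouse, and the log2 fold change was 0.039 (SE 0.14, unadjusted p = 0.786 by edgeR). Ndufaf7, a methyltransferase, had a log2 fold change of 0.013 (SE 0.11) and, with 35.5 to 38.3 CPM, the lowest ratio of the highest to the lowest mouse among the members. Ndufaf8, under its older symbol 1810043H04Rik, had a log2 fold change of -0.14 (SE 0.23).

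Assembly factors without an Nduf name were read from a list of 15, of which 14 were tested. None had an unadjusted p below 0.05 by edgeR, 6 had a higher and 8 a lower mean in MitoParks, and the median over the 14 was -0.018 on the log2 scale. Tmem126b and Acad9, which work with Ndufaf1 in the same membrane arm assembly complex, had the smallest p. Tmem126b had 22.4, 25.9 and 21.8 CPM in controls and 21.3, 18.3 and 18.4 CPM in MitoParks. Every MitoPark was below every control, which held for 1 of the 14 genes in either direction against 4.71% of all genes, with a log2 fold change of -0.28 (SE 0.13, unadjusted p = 0.0650 by edgeR). Acad9 had 65.6, 65.3 and 67.9 CPM in controls and 72.0, 67.0 and 94.0 CPM in MitoParks, a log2 fold change of 0.23 (SE 0.14, unadjusted p = 0.126 by edgeR) in which MitoPark 3 stood far above the rest. Ecsit, another protein of that complex, had a log2 fold change of 0.042.

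**Figure D3:**
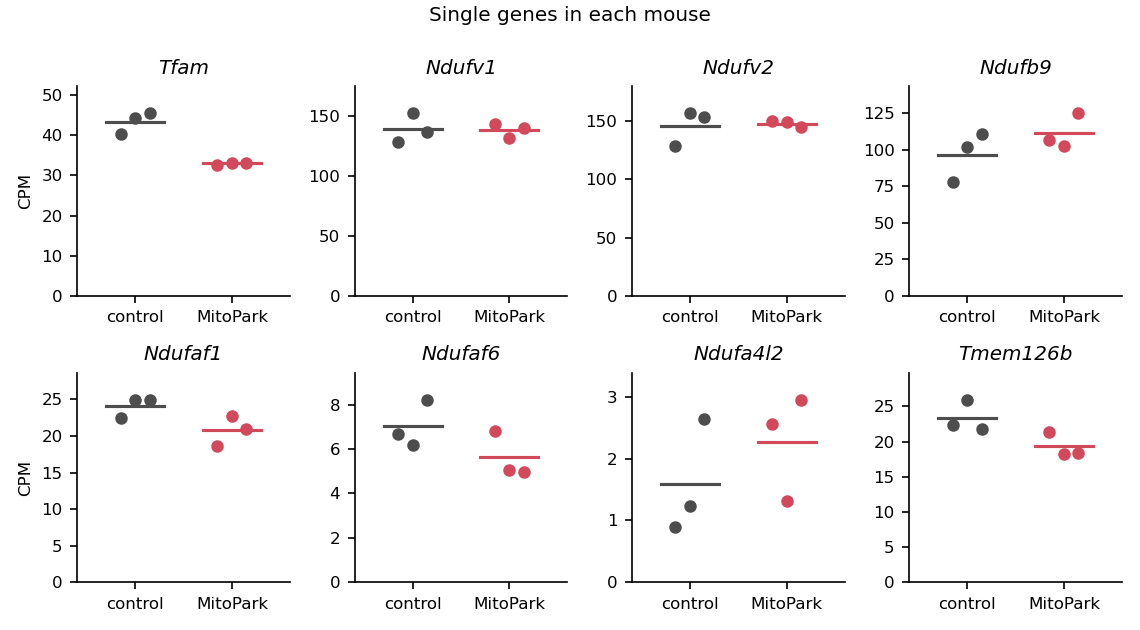
CPM of 8 genes in each mouse (points, mice 1 to 3 from left to right in each group) with the group mean (line), on axes that start at 0. Tfam and Tmem126b have no overlap between the groups, Ndufv1 and Ndufv2 have MitoPark values inside the control range, and Ndufb9, Ndufaf1, Ndufaf6 and Ndufa4l2 overlap.

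For the subunits, differences between mice of the same group were larger than the difference between the groups. All 38 subunits were higher in control 2 than in control 1, with a median log2 difference of 0.28, and 31 of 38 were higher in MitoPark 1 than in MitoPark 2, with a median log2 difference of 0.13. Control 1 was the lowest mouse for 25 of 38 subunits, and control 2 the highest for 16. The shares of all genes tested with these orders of mice were not computed. For each gene the log2 CPM was set against its mean over the 6 mice, and the median over subunits was -0.14, 0.12 and 0.022 in controls 1, 2 and 3 and 0.073, -0.070 and 0.0067 in MitoParks 1, 2 and 3. Between the groups the mean of these medians differed by 0.0023, and the within-group SD was 0.11.

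Assembly factors had another order of mice than subunits. Their medians were -0.041, 0.075 and 0.12 in controls 1, 2 and 3 and -0.11, 0.027 and -0.060 in MitoParks 1, 2 and 3. MitoPark 1 was thus high in the median of subunits and low in that of assembly factors. Between the groups the mean of the assembly factor medians differed by -0.098 (MitoPark minus control), against a within-group SD of 0.076, and the groups overlapped. The 7 genes were split in MitoPark 1, with 4 below and 3 above their own mean. It was the lowest mouse for 2 of them and the highest for 2. With Ndufaf8 added, the median was -0.038 in MitoPark 1, near control 1 (-0.042), and lowest in MitoPark 3 (-0.075). Across the 6 mice, 33 of 38 subunits had an r above 0.5 with the median of the other subunits, and 0 of 7 assembly factors did, the highest being Ndufaf7 with 0.48. Among subunits the closest were Ndufa3 (0.99) and Ndufs6 (0.98), and the least alike was Ndufs1 (0.059). These are descriptions over 6 points, in which every gene shares the library of its mouse and the same scaling. The share of all genes tested with an r above 0.5 was not computed, so the counts do not set subunits apart.

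Transcript length moved with this pattern. Of the subunits 24 of 38 had transcripts under 1 kb, against 1 of 7 assembly factors and 5.72% of the genes tested that had a length. All 796 tested genes with transcripts under 1 kb had median deviations of -0.090, 0.12 and -0.016 in controls 1, 2 and 3 and 0.084, -0.089 and 0.027 in MitoParks 1, 2 and 3, close to those of the subunits. The 6837 genes with transcripts of 3 kb or more had 0.051 and -0.031 in controls 1 and 2, the opposite order. The 14 subunits with transcripts of 1 kb or more still had -0.14 and 0.093 in controls 1 and 2, with 0.034 in MitoPark 1 and -0.013 in MitoPark 2. The part of transcript length in the differences between mice was not tested.

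**Figure D4:**
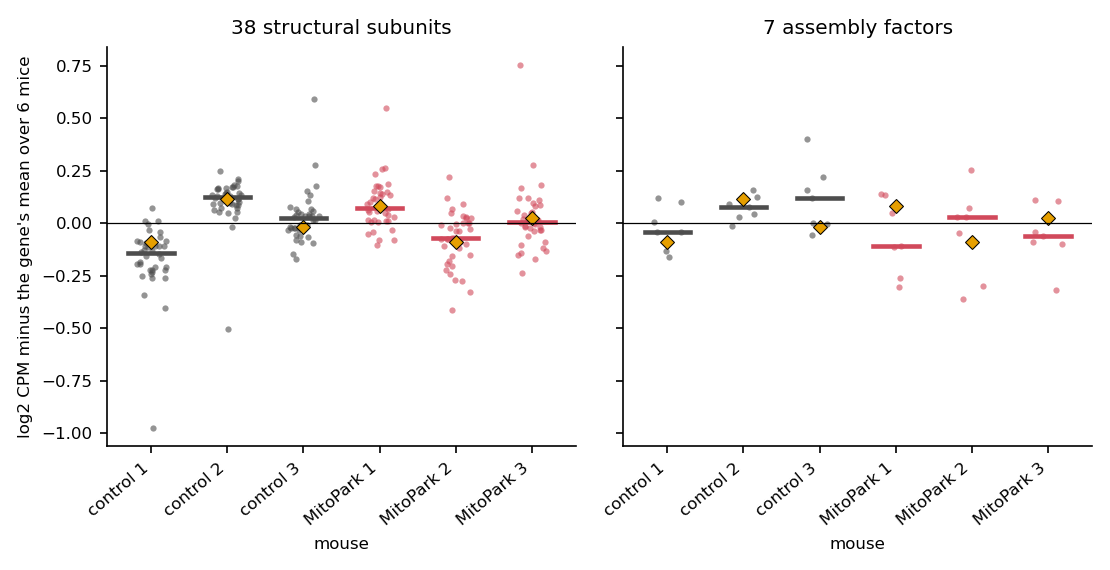
Deviation of log2 CPM from each gene's mean over the 6 mice, for 38 subunits and 7 assembly factors (points), with the median of the set in each mouse (bars) and the median of all tested genes with transcripts under 1 kb (diamonds). The median of subunits is low in control 1 and MitoPark 2 and high in control 2 and MitoPark 1, as are the diamonds. The median of assembly factors is low in MitoPark 1, where the 7 genes are split, and highest in control 3.

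The direction of the small subunit median depended on single mice. Without control 1 the median log2 fold change was -0.057 and 31 of 38 subunits were lower in MitoParks, and without control 2 it was 0.073 and 34 were higher. Without MitoParks 1, 2 and 3 in turn it was -0.030, 0.055 and -0.00092, and without control 3 it was 0.024. The median over assembly factors stayed below 0 each time, between -0.14 without control 1 and -0.049 without MitoPark 1. In these fits Ndufa4l2 without control 3 was the 1 member with an unadjusted p below 0.05. The share of all genes below 0.05 was 1.65%, 0.83% and 2.56% without controls 1, 2 and 3 and 1.33%, 4.49% and 0.668% without MitoParks 1, 2 and 3, and the share past both cutoffs was 0.912%, 0.59% and 1.5%, and 0.814%, 1.48% and 0.427%. Of the assembly factors without an Nduf name, Tmem126b had an unadjusted p of 0.0482 without MitoPark 1 and Acad9 of 0.0398 without MitoPark 2, by edgeR.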

How the data were processed

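Polyadenylated RNA from the SN was sequenced with a dUTP stranded kit. The authors mapped reads to UCSC transcripts with Bowtie2 2.1.0 and estimated expected counts per gene with RSEM 1.2.15, per the submitters' processing notes, and deposited the expected counts as RSEM gave them, not normalized. The notes name the human build hg38, whereas the symbols are those of mouse genes, and the counting strand is not given in the sources used here. A second paragraph of the methods describes RPKM values, which were not used here. Columns of no mapped sample numbered 0. From 11.9% to 14.1% of a mouse's values had a fractional part, in 6 members too, and all were rounded.

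The 14568 genes whose mean exceeded 1 CPM in either group were tested. Counts were scaled by TMM and fitted with edgeR 4.0.16 in R 4.3.3 by the quasi-likelihood test, with groups taken from the labels as the only term, and p-values were adjusted by Benjamini-Hochberg over all genes tested. The procedure was also run on simulated counts, drawn gene by gene without shifts shared by the genes of a mouse. Intervals are at 95%. The p-values measure the spread between these mice, which the labels do not tie to litters or batches. No pair of mice within a group agreed within sampling noise (lowest chi-square divided by its degrees of freedom, 9.68).

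Transcript lengths came from protein-coding GENCODE M21 transcripts, and were found for 45 of 45 members and 95.5% of genes tested. Promoters for 39 of 45 members came from RefSeq (GRCm38.p6). Permutation tests used log2(CPM + 0.1). Full statistics were given for Tfam, the first 4 core subunits of the list except 1 that is not reported here, the 4 members with the smallest p in each direction, the highest and lowest by CPM per kb, Ndufa4, Ndufa4l2 and 2 other assembly factors. Ndufs4, Ndufa12, Ndufaf4, Ndufaf7 and Ecsit were given as further examples. Members and lists were chosen with earlier results of these data known. Alternatives were RLE and total count normalization, no filter, DESeq2 1.42.0, a replicate block and fits that omitted 1 mouse. Figures were drawn with matplotlib 3.10.9 in Python 3.11.15.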

Additional observations from a re-analysis of the deposited data

How the results depend on the processing

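Under RLE or total count normalization, without the filter, with DESeq2 or with the replicate block, no member had an unadjusted p below 0.05. Leaving out each mouse in turn gave between 0 and 1 such members, against 0.668% to 4.49% of all genes, and between 0 and 1 past both cutoffs, against 0.427% to 1.5%. The median log2 fold change of assembly factors was between -0.14 and -0.049 when mice were left out, that of subunits between -0.057 and 0.073, and that of Tfam between -0.44 and -0.36. Same-numbered mice had correlations of their deviations of 0.31, -0.073 and 0.25, so the numbers were not taken as a pairing. With the replicate block, the subunit median was 0.0024, that of assembly factors -0.070, and 126 genes of the table passed both cutoffs against 84. With the block, 1 gene, which is no member, had an adjusted p below 0.05 by edgeR (1500004A13Rik, named after its values were seen, with a log2 fold change of -4.37 and an adjusted p of 0.00103). Both cutoffs, which use the unadjusted p, were passed by 176 of 19235 genes without the filter. Without controls 1 and 3 and MitoPark 2 in turn, 133, 219 and 217 genes passed both cutoffs. In none of these 4 settings did a gene have an adjusted p below 0.05 by edgeR. Total count normalization gave 23 higher and 15 lower subunits, against 20 and 18.

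The sign of small log2 fold changes turned, and the cause was not tested. Ndufv1 had 0.0040 under total count normalization. With a mouse left out, the range was -0.059 to 0.059 for Ndufv1, -0.065 to 0.069 for Ndufv2, -0.19 to 0.040 for Ndufs1, -0.15 to 0.0072 for Ndufb8, -0.16 to 0.056 for Ndufc1, -0.084 to 0.11 for Ndufaf5 and -0.14 to 0.096 for Ndufaf3. Tmem126b without MitoPark 1 (-0.34) and Acad9 without MitoPark 2 (0.33) passed an unadjusted p of 0.05, at 0.0482 and 0.0398 by edgeR. Depth limits Ndufa4l2, with 8 to 27 counts, and Ndufaf6, with 44 to 84.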

Other observations

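The nuclear genes of complexes II to V of the respiratory chain and ATP synthase were read from a list of which 39 were tested. None had an unadjusted p below 0.05 by edgeR, against 1.11% of all genes, and the smallest was 0.281. Their median log2 fold change was -0.011, with 16 higher and 23 lower in MitoParks, and all 39 intervals lay within a 1.5-fold change either way. By complex, the medians were -0.045 over 4 genes of complex II, -0.013 over 9 of complex III, 0.020 over 11 of complex IV and -0.016 over 15 of complex V. As in complex I subunits, the median deviation was lowest in control 1 (-0.15), next lowest in MitoPark 2 (-0.054) and highest in control 2 (0.11). Control 3 (0.057) was above MitoPark 1 (0.048), the reverse of their order in the subunits.

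Markers of other cells in the tissue varied between mice of the same group. The summed level of 6 oligodendrocyte markers was between 6697 CPM in control 1 and 17757 CPM in control 3, and 15111 CPM in MitoPark 3. The 8 markers of neurons in general had 4339, 4858 and 5898 CPM in controls 1, 2 and 3 and 4224, 5228 and 4221 CPM in MitoParks 1, 2 and 3, with 1 higher and 7 lower and a median log2 fold change of -0.10. Of 7 astrocyte markers 5 had a higher mean in MitoParks, as did 5 of 6 oligodendrocyte, 5 of 6 microglial, 2 of 5 endothelial and 4 of 5 red cell markers. C1qa, a complement gene of microglia that was named after its values were seen, was the 1 gene of these 6 lists with an unadjusted p below 0.05 by edgeR. It had 27.5, 29.3 and 32.6 CPM in controls and 36.8, 33.6 and 42.7 CPM in MitoParks, with no overlap. The log2 fold change was 0.34 (SE 0.13). By edgeR its p was 0.0310 before the Benjamini-Hochberg step over all genes tested, and 0.999 after it. A p below 0.05 before that step was found for 1.11% of all genes tested, and groups without overlap for 4.71%. Aif1, another microglial marker, had 3.23, 3.13 and 3.13 CPM in controls and 3.41, 4.35 and 6.12 CPM in MitoParks, also without overlap (log2 fold change 0.55, SE 0.27). Thus 2 of the 6 microglial markers were without overlap, both higher in MitoParks, and no marker of the other lists was. Aif1 too was named after its values were seen, and the list was not tested as a set. A single call at a p below 0.05 among these lists, picked after its value was seen, does not set C1qa apart. The part of these markers in the levels of complex I genes was not tested.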
